A study of Mus musculus with 72 samples.

Results

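Solute carriers are the membrane proteins that move sugars, amino acids, metals, nucleosides, vitamins and organic acids across the cell surface and the membranes of mitochondria, lysosomes and the secretory pathway. Here they were described in RAW264.7, a mouse macrophage-like line whose genotype the labels give as BALB/c. The members were chosen by their RNA level: genes with a solute carrier symbol and at least 1 RPKM (reads scaled to exon length and to library size) in at least 3 of 9 RNA libraries, leaving out Slc2a1, Slc3a2, Slc7a5, Slc7a11 and Slc30a1. This gave 151 genes of 25124 in the RNA table, together with 511 of 51984 ATAC-seq peaks that the authors assigned to them within 50 kb of a start site. ATAC-seq measures how open chromatin is to a transposase. The RPKM level over all libraries chose the genes, so the levels below are a description. The rule takes no difference between hairpins and no ATAC value, but the genes were picked out with earlier results of these data known.

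Cells carried a lentiviral short hairpin RNA labelled shNCOR (target gene Ncor1), shSMRT or shGFP, the last against GFP, with 3 RNA-seq and 3 ATAC-seq libraries each. All were kept in serum-containing medium without further treatment. NCOR is a corepressor, a protein that nuclear receptors and other transcription factors bring to DNA together with a histone deacetylase. The labels name a single hairpin per target and do not say whether the cells were a clone or a pool. Their ATAC protocol speaks of wild-type cells in triplicate wells although the titles name the hairpins, and nothing says that the RNA libraries came from separate cultures, so the p-values measure only the spread between these libraries.

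RNA libraries held 39.15 to 49.09 M reads and ATAC libraries 6.059 to 10.84 M. The RNA of Ncor1 was lowest with its own hairpin. Ncor1 had 3.61, 4.20 and 4.30 RPKM in shNCOR cells and 18.9, 20.2 and 20.2 in shSMRT cells, against 18.4, 20.2 and 18.7 in shGFP cells. Of 11 macrophage markers, 9 averaged at least 1 RPKM in shNCOR cells and 10 in both other groups, and their summed level was 8454 to 8736 RPKM in shNCOR, 10150 to 10680 in shSMRT and 7271 to 7411 in shGFP libraries. Lyz2 made up most of each sum, averaging 6548, 8104 and 5195 RPKM in that order, and the markers moved both ways. By the test described below, of 10 tested, 3 rose and 4 fell in shNCOR cells relative to shGFP, beside 17.6% and 20.0% of all genes. In shSMRT cells 7 rose and 3 fell, beside 24.4% and 31.4%. Fcgr1 averaged 0.416 RPKM in shNCOR and 9.15 in shSMRT cells, against 17.5 in shGFP cells. Lymphocyte, neutrophil and mast cell, and fibroblast and epithelial markers summed to at most 0.54 RPKM in any library, and none averaged 1 RPKM. In these bulk samples fewer cells of a kind and less RNA per cell cannot be told apart, and the part of the macrophage marker level in the results was not tested.

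Solute carriers are numbered in families by sequence, and a family largely shares its cargo and coupling ions. Some are gates of metabolism. The SLC16 family includes carriers of lactate, and the SLC7, SLC38 and SLC1 families move amino acids. The SLC25 family moves nearly all metabolites that cross the inner mitochondrial membrane. Macrophages are known for ferroportin (Slc40a1), which returns iron from digested red cells to the blood, for the heme transporter HRG1 (Slc48a1), and for NRAMP1 (Slc11a1), which draws divalent metals out of the phagosome.

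The promoters of 5 members whose start site lay in a peak described below are shown because RNA, start-site accessibility or both separated the hairpins there. At Slc39a8 the accessibility alone is meant, and this gene is a member only through its RNA in shSMRT libraries, so its promoter is shown as a description. Each is the 250 bases before the RefSeq start on build GRCm38.p6, read along the gene, and its capitals mark any of 6 short motifs searched on both strands: CACGTG (E-box), GAGGAAGT (ETS), TGANTCA (AP-1), TGATGNAA (CRE-like), TGACNNNGC (antioxidant-response-like) and GGGCGG (SP).
Slc37a2, chr9:37255739-37255988, minus strand: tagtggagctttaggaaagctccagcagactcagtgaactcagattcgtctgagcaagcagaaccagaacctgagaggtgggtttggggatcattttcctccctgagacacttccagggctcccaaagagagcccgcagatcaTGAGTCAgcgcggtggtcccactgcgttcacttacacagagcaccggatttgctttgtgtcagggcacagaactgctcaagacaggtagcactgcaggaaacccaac
Slc5a3, chr16:92058072-92058321, plus strand: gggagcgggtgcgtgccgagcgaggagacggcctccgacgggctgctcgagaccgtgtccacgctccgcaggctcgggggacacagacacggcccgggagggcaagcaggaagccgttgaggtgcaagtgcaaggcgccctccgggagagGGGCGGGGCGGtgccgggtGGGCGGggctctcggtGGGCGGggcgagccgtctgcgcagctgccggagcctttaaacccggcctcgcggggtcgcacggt
Slc16a12, chr19:34747329-34747578, minus strand: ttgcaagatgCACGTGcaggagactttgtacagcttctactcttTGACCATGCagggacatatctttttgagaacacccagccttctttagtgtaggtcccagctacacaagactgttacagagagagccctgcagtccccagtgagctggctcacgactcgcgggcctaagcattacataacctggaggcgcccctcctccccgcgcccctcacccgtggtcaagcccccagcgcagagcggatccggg
Slc24a5, chr2:125067877-125068126, plus strand: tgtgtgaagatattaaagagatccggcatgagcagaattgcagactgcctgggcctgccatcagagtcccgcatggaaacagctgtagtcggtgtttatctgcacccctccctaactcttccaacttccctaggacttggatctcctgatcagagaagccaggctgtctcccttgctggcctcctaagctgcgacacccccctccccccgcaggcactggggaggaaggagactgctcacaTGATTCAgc
Slc39a8, chr3:135825407-135825656, plus strand: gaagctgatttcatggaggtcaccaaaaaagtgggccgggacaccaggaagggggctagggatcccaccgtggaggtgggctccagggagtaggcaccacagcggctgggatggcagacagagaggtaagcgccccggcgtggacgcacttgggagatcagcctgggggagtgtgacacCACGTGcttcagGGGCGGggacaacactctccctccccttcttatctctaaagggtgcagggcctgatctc
The capitals of Slc37a2 and Slc24a5 are an AP-1 match each. Slc5a3 holds 4 SP matches, the first 2 of which overlap. Slc16a12 holds an E-box and an antioxidant-response-like match, and Slc39a8 an E-box and an SP match. All 250 bases lay inside the peak named for the gene, except in Slc16a12, where 164 did.

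Promoters were found in the RefSeq table for 113 of the 151 members, with 160 starts. Their median GC content was 60.8%, against 60.0% for the 10693 starts of all genes that passed the same level and 52.4% for all 32851 starts. CACGTG stood in 14.4% of the member starts, in 8.73% of the starts of genes at that level and in 6.02% of all starts. TGACNNNGC stood in 18.8%, 11.8% and 10.2% of these 3 sets. TGANTCA stood in 6.88%, 4.11% and 6.75%, TGATGNAA in 3.12%, 1.95% and 3.45%, GAGGAAGT in 1.88%, 2.49% and 2.44%, and GGGCGG in 60.0%, 58.6% and 32.7%. These are shares of windows with the letters, with no test, and do not show that a factor binds.

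Most members were expressed at moderate levels. Their mean RPKM in shGFP cells ran from 0.405 to 795 with a median of 11.8 and quartiles of 6.38 and 23.6, against a median of 13.3 and quartiles of 5.06 and 32.1 over the 10789 genes at this level. In shGFP cells 64 members averaged under 10 RPKM, 80 averaged 10 to 100 and 7 at least 100. The ADP/ATP carrier Slc25a5 was the most abundant, with 787, 765 and 747 RPKM in shNCOR, 718, 714 and 727 in shSMRT and 820, 761 and 803 in shGFP libraries. RNAs that closely resemble Slc25a5 could share its reads, so its level is uncertain. The 36 mitochondrial carriers made up 43.2% to 45.6% of the members' summed RPKM in each library, the 25 amino acid and peptide carriers 17.5% to 19.0%, and the 24 metal and heme carriers 10.8% to 13.1%. All members together made up 0.917% to 0.968% of the table's summed RPKM in shNCOR, 0.919% to 0.938% in shSMRT and 0.938% to 0.948% in shGFP libraries.

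At the edge of the level, the third-highest RPKM was 1.007 for Slc49a4, 1.028 for Slc39a8, 1.03 for Slc27a3 and 1.048 for Slc3a1, all inside, and 0.935 for Slc8a1, 0.826 for Slc22a15, 0.758 for Slc17a6 and 0.615 for Slc24a3, all outside. Slc39a8 and Slc49a4 reached 1 RPKM in shSMRT libraries alone, so they had to be higher there and their RNA differences are no result. Counts of classes and lists are given without Slc39a8 too. Of 335 solute carrier symbols in the table, 179 stayed below the level, 88 of them at 0 in every library.

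In shNCOR cells 33 members rose and 39 fell relative to shGFP cells (limma on log2(RPKM + 1), Benjamini-Hochberg adjusted p under 0.05 over all genes at the level). Among all genes 17.6% rose and 20.0% fell, and 21.9% and 25.8% of the members did. In shSMRT cells 39 members rose and 44 fell relative to shGFP cells, which is 25.8% and 29.1% of the members, while 24.4% and 31.4% of all genes did. Set against shNCOR cells, shSMRT cells had 42 members up and 42 down, where 22.8% and 29.0% of all genes were. The median log2 fold change of the members was -0.03, 0.00 and -0.01 in these 3 comparisons, against 0.00, -0.02 and -0.02 over all genes. Without Slc39a8 and Slc49a4 the 39 and 42 members higher in shSMRT cells became 37 and 40 of 149. Counts of calls were thus near the background for shSMRT and somewhat above it for shNCOR, and the members moved both ways. Fold changes below are on the log2(RPKM + 1) scale, with standard errors, and understate the change of genes near 1 RPKM. The comparisons with shGFP share its libraries. Counts within a class or list stand beside the same shares of all genes, were not tested against them, and are small.

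**Figure D1:**
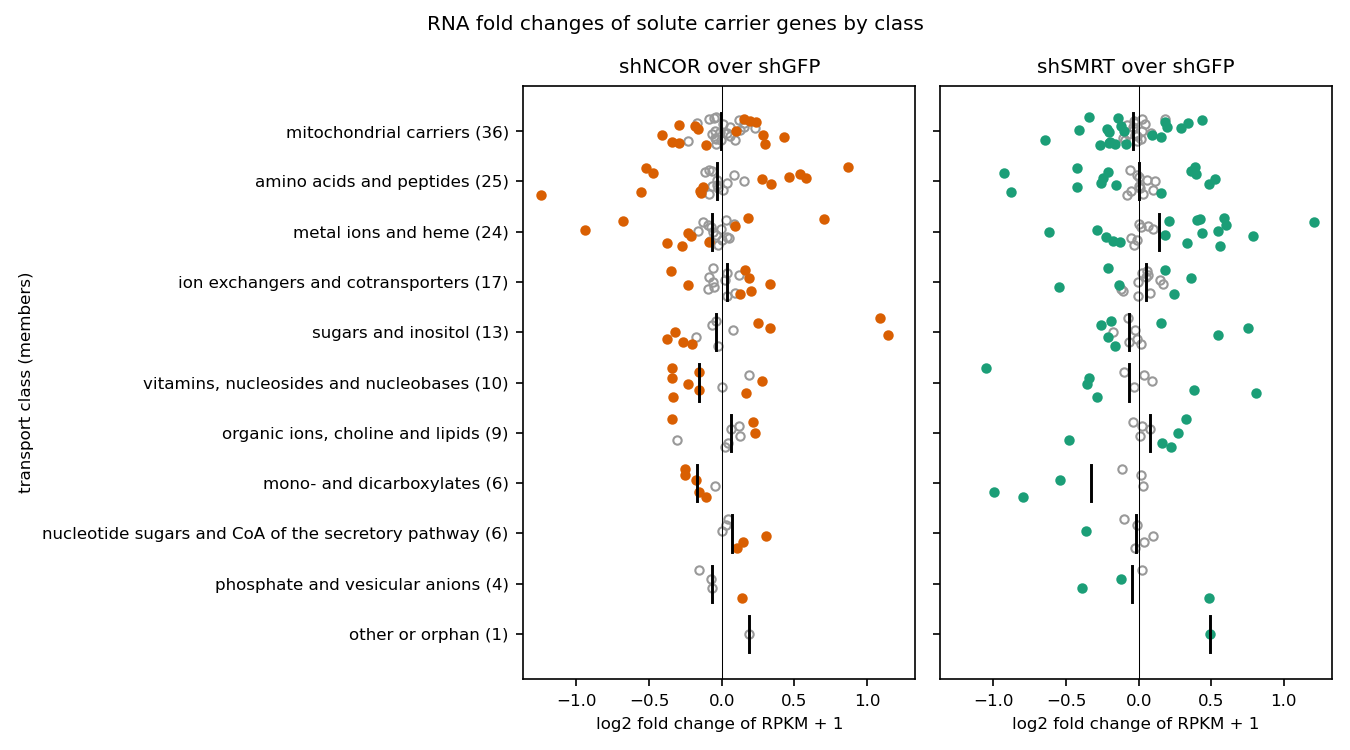
Log2 fold changes of RPKM + 1 for the 151 solute carrier genes (horizontal axis), one row per transport class with its number of members; filled points passed the test, open points did not, and vertical bars are class medians. The left panel is shNCOR over shGFP and the right panel shSMRT over shGFP; filled points of the metal and heme class lie mostly right of 0 in the right panel (12 higher, Slc39a8 among them, and 5 lower) and mostly left of it in the left panel (3 higher, 7 lower).

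Of the 23 metal and heme carriers other than Slc39a8, 11 rose and 5 fell in shSMRT cells relative to shGFP cells. These are 47.8% and 21.7%, where 24.4% and 31.4% of all genes rose and fell. In shNCOR cells 3 rose and 7 fell, 13.0% and 30.4%, where 17.6% and 20.0% of all genes did. Between the hairpins 12 were higher and 4 lower in shSMRT cells, 52.2% and 17.4%, where 22.8% and 29.0% of all genes were. The median log2 fold change of the 23 was 0.10 for shSMRT and -0.06 for shNCOR over shGFP. With Slc39a8, which the level required to be high in shSMRT cells, the counts higher there were 12 over shGFP and 13 over shNCOR, and each count of the 24 stayed within 1.5 times its value when any library was left out.

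Ferroportin led. Slc40a1 (chr1:45908070-45925594, minus strand) had 10.4, 9.97 and 9.76 RPKM in shSMRT libraries and 3.36, 3.38 and 3.36 in shNCOR libraries, against 3.46, 4.25 and 3.65 in shGFP libraries. The shSMRT libraries stood above all others, and the shNCOR libraries lay just below the shGFP range. Its mean in shSMRT cells was 2.65 times that in shGFP cells (log2 fold change 1.21 ± 0.06, adjusted p = 6.8e-08) and 2.98 times that in shNCOR cells (1.34 ± 0.06, adjusted p = 2.7e-08). The shNCOR change did not pass the test (-0.13 ± 0.06, adjusted p = 0.14).

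The lysosomal heme importer HRG1, Slc48a1, had 43.1, 42.3 and 44.8 RPKM in shSMRT libraries and 32.9, 32.3 and 32.2 in shNCOR libraries, against 29.1, 28.3 and 28.3 in shGFP libraries. The 3 groups did not overlap, and it rose with both hairpins (shSMRT 0.59 ± 0.03, adjusted p = 6.2e-08; shNCOR 0.18 ± 0.03, adjusted p = 0.0008). NRAMP1, Slc11a1, had 49.9, 52.5 and 51.9 RPKM in shSMRT libraries and 28.4, 27.1 and 29.7 in shNCOR libraries, against 34.6, 35.1 and 34.0 in shGFP libraries. It moved in opposite directions, up in shSMRT (0.56 ± 0.04) and down in shNCOR cells (-0.27 ± 0.04), with a difference between the hairpins of 0.84 ± 0.04 (adjusted p = 1.7e-08). Slc31a2, a copper transporter-like protein of endosomes and lysosomes, had 13.4, 11.8 and 13.7 RPKM in shSMRT libraries and 6.11, 5.42 and 6.45 in shNCOR libraries, against 7.26, 6.92 and 7.10 in shGFP libraries. Its shSMRT libraries lay clear of the rest (0.79 ± 0.07 over shGFP, adjusted p = 2.4e-06), and shNCOR lay below shGFP (-0.21 ± 0.07, adjusted p = 0.025).

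Of the 10 iron and heme carriers other than Slc39a8 in the list used here, which also holds mitochondrial members, 3 rose and 3 fell in shSMRT cells and 1 rose (2 without shNCOR replicate 1) and 4 fell in shNCOR cells relative to shGFP. In shSMRT cells both counts are 30.0%, where 24.4% and 31.4% of all genes rose and fell. In shNCOR cells the counts are 10.0% and 40.0%, where 17.6% and 20.0% of all genes did. The 3 that rose with shSMRT were Slc40a1, Slc48a1 and Slc11a1. The 3 that fell were the iron and zinc importer ZIP14, Slc39a14, the mitochondrial iron importer mitoferrin 2, Slc25a28 (-0.20 ± 0.05), and the glycine carrier of heme synthesis, Slc25a38 (-0.12 ± 0.04). The call of Slc25a38 was lost without shSMRT replicate 2 or 3 or shGFP replicate 1 or 3 and with both other scalings. Slc39a14 was the metal carrier that fell furthest in shNCOR cells, with 10.3, 10.8 and 9.88 RPKM, and had 16.7, 16.9 and 17.1 in shSMRT libraries, against 20.4, 21.6 and 20.6 in shGFP libraries. The 3 groups did not overlap (shNCOR -0.94 ± 0.04, adjusted p = 1.9e-08; shSMRT -0.29 ± 0.04, adjusted p = 0.00013). Slc25a39, which carries glutathione into mitochondria, fell in shNCOR cells (-0.29 ± 0.04), with 116, 112 and 110 RPKM against 141, 139 and 135 in shGFP libraries.

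Zinc carriers comprise the SLC39 importers, which move zinc into the cytosol, and the SLC30 exporters. Of 15 that were at the level among 23 listed, 14 remain without Slc39a8, and of these 4 rose and 4 fell in shSMRT cells, and 1 rose and 4 fell in shNCOR cells relative to shGFP. Both counts in shSMRT cells are 28.6%, beside the 24.4% and 31.4% of all genes. In shNCOR cells they are 7.14% and 28.6%, beside 17.6% and 20.0%. Slc39a8, the zinc and manganese importer ZIP8, had 1.29, 1.03 and 1.08 RPKM in shSMRT libraries and 0.260, 0.362 and 0.323 in shNCOR libraries, against 0.384, 0.424 and 0.408 in shGFP libraries, and no test is given for it. The 4 that rose with shSMRT were Slc39a13 (0.55 ± 0.06), Slc39a10 (0.43 ± 0.04), Slc30a4 (0.33 ± 0.05) and Slc39a1 (0.18 ± 0.03). The 4 that fell were Slc39a11 (-0.62 ± 0.04), Slc39a14, Slc30a6 (-0.18 ± 0.05) and Slc30a5 (-0.13 ± 0.03), the last of which lost its call under quantile normalization. Slc39a10 had 26.4, 27.0 and 27.1 RPKM in shSMRT libraries and 15.6, 17.9 and 16.2 in shNCOR libraries, against 19.4, 20.0 and 19.5 in shGFP libraries. It was highest in shSMRT and lowest in shNCOR cells (-0.23 ± 0.04 for shNCOR, adjusted p = 0.0019). Slc30a4 showed the same order with 7.32, 7.33 and 7.56 RPKM in shSMRT and 4.04, 4.42 and 3.98 in shNCOR libraries, against 5.52, 5.86 and 5.68 in shGFP libraries (shNCOR -0.38 ± 0.05, adjusted p = 0.00015). The endoplasmic reticulum importer ZIP7, Slc39a7, was the most abundant of the class at 91.2 to 95.6 RPKM in shGFP cells, and its small rise in shNCOR cells (0.09 ± 0.03, adjusted p = 0.022) was not called without shNCOR replicate 1 or 3 or shGFP replicate 2 or 3. The fall of Slc30a5 in shNCOR cells (-0.09 ± 0.03, adjusted p = 0.032) was likewise lost without any of these 4 libraries.

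Slc41a1, a magnesium exporter of the cell surface, had 2.06, 2.76 and 2.49 RPKM in shNCOR libraries and 5.21, 5.39 and 5.36 in shSMRT libraries, against 4.47, 4.68 and 4.30 in shGFP libraries. It fell in shNCOR cells (-0.68 ± 0.07, adjusted p = 3.2e-05). Slc41a3, of the same family, had 2.93, 3.10 and 2.91 RPKM in shNCOR libraries and 2.18, 2.46 and 2.23 in shSMRT libraries, against 1.20, 1.69 and 1.48 in shGFP libraries. It rose with both hairpins (0.70 ± 0.08 in shNCOR and 0.43 ± 0.08 in shSMRT cells).

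**Figure D2:**
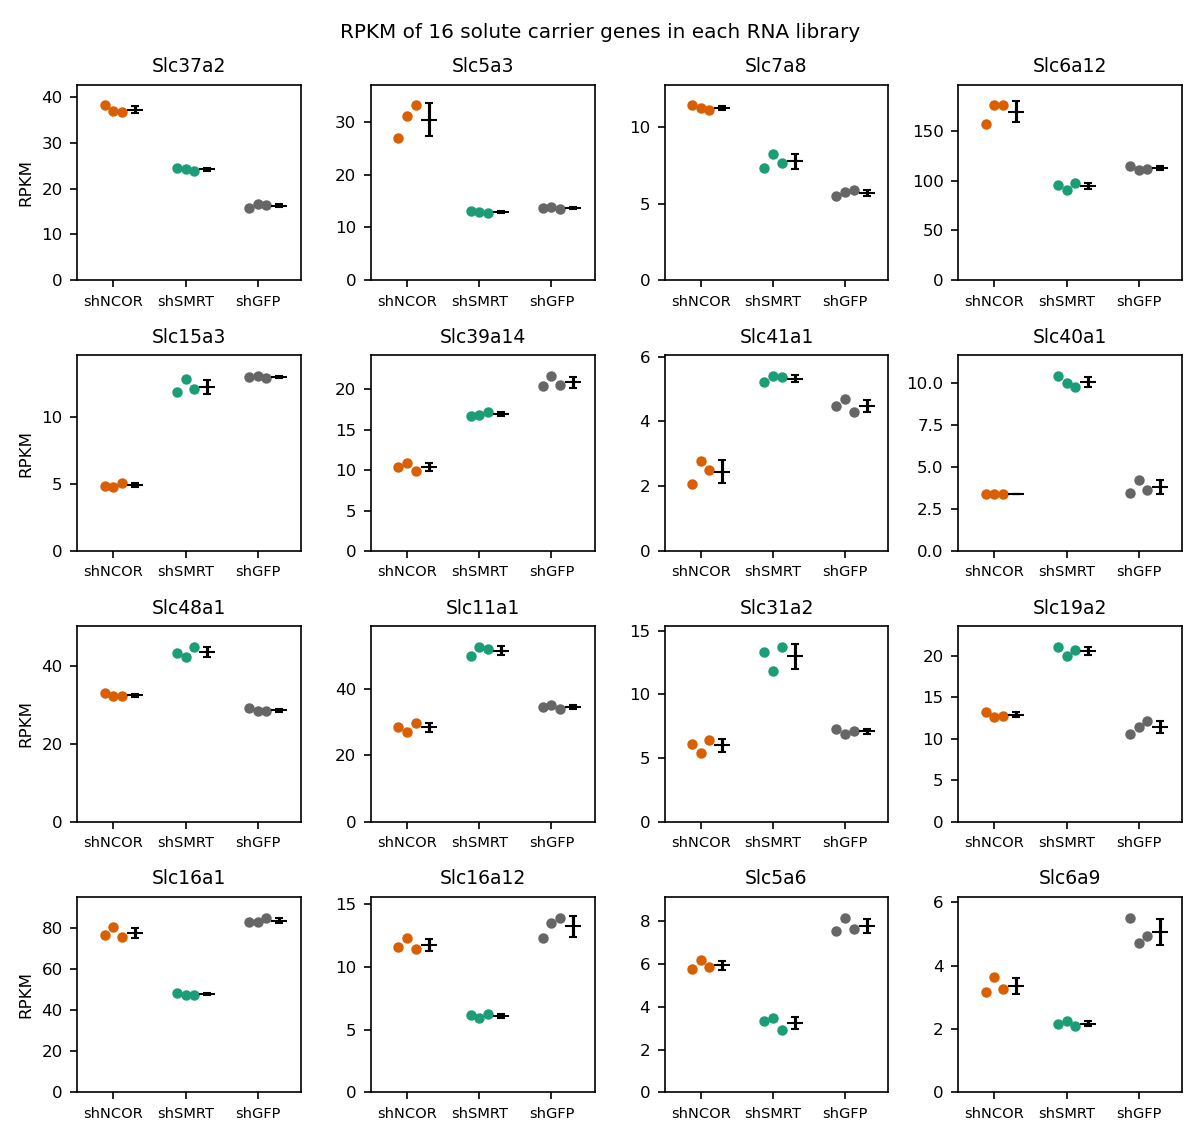
RPKM (vertical axis, from 0) of 16 solute carrier genes in each library; points are libraries in 3 columns (shNCOR, shSMRT and shGFP from left to right), and bars are the mean and SD of 3. Slc40a1 is high in the shSMRT libraries only (9.76 to 10.4 RPKM), Slc5a3 in the shNCOR libraries only (26.9 to 33.1), and Slc15a3 is low in the shNCOR libraries only (4.77 to 5.08).

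Among 13 sugar and inositol carriers, 4 rose and 4 fell in shNCOR cells and 3 rose and 4 fell in shSMRT cells relative to shGFP. These are 30.8% each in shNCOR cells, beside 17.6% and 20.0% of all genes. In shSMRT cells they are 23.1% and 30.8%, beside 24.4% and 31.4%. The count of 4 that fell in shSMRT cells was 1 or 2 without shSMRT replicate 1 or 2 or shGFP replicate 1 or 2. Slc37a2 (chr9:37229149-37255738, minus strand), a sugar phosphate carrier abundant in macrophages, was the member that rose furthest in shNCOR cells. It had 38.2, 36.9 and 36.8 RPKM in shNCOR libraries and 24.5, 24.4 and 23.8 in shSMRT libraries, against 15.9, 16.6 and 16.5 in shGFP libraries. The groups were far apart: the shNCOR mean was 2.29 times and the shSMRT mean 1.49 times the shGFP mean (shNCOR 1.15 ± 0.03, adjusted p = 5.5e-10; shSMRT 0.54 ± 0.03, adjusted p = 1.6e-07).

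Slc5a3 (chr16:92058322-92087473, plus strand), the sodium-coupled importer of myo-inositol, had 26.9, 31.1 and 33.1 RPKM in shNCOR libraries and 13.1, 12.9 and 12.8 in shSMRT libraries, against 13.6, 13.9 and 13.6 in shGFP libraries. Only the shNCOR libraries stood apart, at 2.22 times the shGFP mean (1.09 ± 0.06, adjusted p = 1.2e-07), while the shSMRT difference did not pass (-0.08 ± 0.06, adjusted p = 0.31). Mrps6, a mitochondrial ribosome gene annotated over Slc5a3 on the same strand, averaged 243 RPKM in shNCOR and 122 in shSMRT cells, against 158 in shGFP cells, and reads in shared exons cannot be assigned to either. The urate carrier Slc2a9 fell in shNCOR cells (-0.38 ± 0.07, adjusted p = 0.0015), with 3.01, 3.47 and 3.51 RPKM against 4.17, 4.93 and 4.80 in shGFP libraries. Slc2a6, a lysosomal hexose carrier and the most abundant of the class at 51.0 to 52.0 RPKM in shGFP cells, fell there too (-0.21 ± 0.05, adjusted p = 0.0071). Slc45a3 rose with both hairpins, by 0.75 ± 0.10 in shSMRT cells and by 0.34 ± 0.10 in shNCOR cells, and the second call was lost without shNCOR replicate 1 or 2 or shGFP replicate 2 or 3.

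Amino acid and peptide carriers gave some of the largest changes in either direction: of 25, 6 rose and 7 fell in shNCOR cells and 6 rose and 8 fell in shSMRT cells relative to shGFP. These are 24.0% and 28.0% in shNCOR cells, beside 17.6% and 20.0% of all genes. In shSMRT cells they are 24.0% and 32.0%, beside 24.4% and 31.4%. Slc15a3 (chr19:10842544-10857915, plus strand), which exports histidine and di- and tripeptides from endolysosomes, was the member that fell furthest in shNCOR cells. It had 4.83, 4.77 and 5.08 RPKM in shNCOR libraries and 11.8, 12.8 and 12.0 in shSMRT libraries, against 12.9, 13.0 and 12.9 in shGFP libraries. The shNCOR mean was 0.378 times the shGFP mean (-1.24 ± 0.04, adjusted p = 3.2e-09), and shSMRT did not pass the test (-0.08 ± 0.04, adjusted p = 0.14). Tmem132a, annotated over Slc15a3 on the other strand, averaged 3.30 RPKM in shNCOR and 4.77 in shSMRT cells, against 3.24 in shGFP cells. Whether the counting used strand is not stated by the labels or headers.

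Slc6a12, which imports betaine and GABA, had 157, 176 and 176 RPKM in shNCOR libraries and 95.3, 91.0 and 97.8 in shSMRT libraries, against 115, 111 and 112 in shGFP libraries. It lay above shGFP in shNCOR cells (0.58 ± 0.04, adjusted p = 1.7e-06) and below it in shSMRT cells (-0.25 ± 0.04, adjusted p = 0.0006). Slc6a13, its neighbour on chromosome 6, which takes up GABA and taurine, rose in shNCOR cells and did not pass the test in shSMRT cells (0.47 ± 0.06, adjusted p = 8.9e-05; shSMRT 0.00 ± 0.06, adjusted p = 0.99), and the difference between the hairpins itself passed (-0.46 ± 0.06 for shSMRT over shNCOR, adjusted p = 5.8e-05). The creatine importer Slc6a8 rose with both, by 0.54 ± 0.04 in shNCOR and 0.40 ± 0.04 in shSMRT cells. The glycine importer Slc6a9 had 3.17, 3.64 and 3.27 RPKM in shNCOR libraries and 2.15, 2.26 and 2.11 in shSMRT libraries, against 5.51, 4.72 and 4.92 in shGFP libraries. It fell with both hairpins and further in shSMRT cells (-0.93 ± 0.07 and, for shNCOR, -0.47 ± 0.07; difference -0.46 ± 0.07, adjusted p = 0.00021).

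Slc7a8, the exchanger LAT2, had 11.4, 11.2 and 11.1 RPKM in shNCOR libraries and 7.33, 8.28 and 7.69 in shSMRT libraries, against 5.50, 5.75 and 5.86 in shGFP libraries. It rose with both hairpins (shNCOR 0.87 ± 0.05, adjusted p = 1.5e-07; shSMRT 0.39 ± 0.05, adjusted p = 5.8e-05). Slc1a4, the exchanger ASCT1, fell with both, at 1.64, 1.20 and 1.56 RPKM in shNCOR libraries and 0.953, 1.10 and 0.862 in shSMRT libraries, against 2.85, 2.64 and 2.37 in shGFP libraries (-0.56 ± 0.09 and -0.88 ± 0.09). Slc7a7, the arginine and neutral amino acid exchanger y+LAT1, fell with both hairpins as well (shNCOR -0.52 ± 0.12, adjusted p = 0.0055; shSMRT -0.43 ± 0.12, adjusted p = 0.011), and overlaps Oxa1l on the other strand, which averaged 35.0 RPKM in shNCOR, 36.0 in shSMRT and 35.4 in shGFP cells. The facilitator LAT4, Slc43a2, rose with both (0.28 ± 0.04 in shNCOR, 0.53 ± 0.04 in shSMRT cells), as did Slc38a6 (0.34 ± 0.05 and 0.49 ± 0.05). The glutamine importer Slc1a5, the most abundant of the class, had 141 to 145 RPKM in shNCOR and 150 to 155 in shSMRT libraries, against 156 to 162 in shGFP libraries. It fell slightly in shNCOR cells (-0.15 ± 0.03, adjusted p = 0.00098) and did not pass in shSMRT cells (-0.05 ± 0.03, adjusted p = 0.12).

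Of the 6 mono- and dicarboxylate carriers, all SLC16 genes, 5 fell and none rose in shNCOR cells and 3 fell and none rose in shSMRT cells relative to shGFP. The falls are 83.3% in shNCOR cells, beside 20.0% of all genes, and 50.0% in shSMRT cells, beside 31.4%. Among all genes 17.6% and 24.4% rose. Another SLC16 member, Slc16a10, is counted with the amino acid carriers. That gene fell in shNCOR cells (-0.14 ± 0.04, adjusted p = 0.0088) and rose in shSMRT cells (0.15 ± 0.04, adjusted p = 0.0034). The 5 became 2 without shNCOR replicate 3 or shGFP replicate 3 and 3 without shGFP replicate 2, while the 3 held without each library. The 3 were the lactate and pyruvate carriers MCT1 (Slc16a1) and MCT4 (Slc16a3) and the creatine carrier Slc16a12. Slc16a1 had 48.4, 47.4 and 47.6 RPKM in shSMRT libraries and 76.5, 80.7 and 75.7 in shNCOR libraries, against 83.1, 82.8 and 85.1 in shGFP libraries. This put shSMRT at 0.571 times the shGFP mean (-0.80 ± 0.03, adjusted p = 4.6e-09). Slc16a3 had 64.9, 66.4 and 64.6 RPKM in shSMRT libraries and 84.8, 81.0 and 86.8 in shNCOR libraries, against 100.2, 91.7 and 94.7 in shGFP libraries. The shSMRT libraries were lowest (-0.54 ± 0.04, adjusted p = 4.8e-07).

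Slc16a12 (chr19:34668401-34747328, minus strand) had 6.15, 5.94 and 6.26 RPKM in shSMRT libraries and 11.6, 12.3 and 11.4 in shNCOR libraries, against 12.3, 13.5 and 13.9 in shGFP libraries. The shSMRT libraries held less than any other, at 0.462 times the shGFP mean (-0.999 ± 0.05, adjusted p = 6.5e-08), while shNCOR and shGFP overlapped (-0.16 ± 0.05, adjusted p = 0.035).

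Of the 36 mitochondrial carriers, 7 rose and 13 fell in shSMRT cells and 7 rose and 7 fell in shNCOR cells relative to shGFP. These are 19.4% and 36.1% in shSMRT cells, beside 24.4% and 31.4% of all genes. In shNCOR cells they are 19.4% each, beside 17.6% and 20.0%. The 7 that rose in shSMRT cells became 3 or 4 when any shSMRT or shGFP library was left out and 4 with quantile normalization, and the other 3 counts stayed within 1.5 times. The ornithine carrier Slc25a15 fell furthest in shSMRT cells, with 3.85, 3.51 and 4.41 RPKM, and had 6.66, 6.64 and 6.73 in shNCOR libraries, against 6.40, 6.63 and 7.06 in shGFP libraries (-0.65 ± 0.07, adjusted p = 1.1e-05; shNCOR 0.00 ± 0.07, adjusted p = 0.98). The carnitine and acylcarnitine carrier Slc25a20, which brings fatty acids in for oxidation, rose furthest in shNCOR cells, with 11.3, 11.6 and 12.2 RPKM, and had 9.79, 9.08 and 9.68 in shSMRT libraries, against 8.13, 8.54 and 8.64 in shGFP libraries (0.43 ± 0.05, adjusted p = 2.9e-05; shSMRT 0.16 ± 0.05, adjusted p = 0.013). Slc25a23, a calcium-regulated ATP-Mg and phosphate carrier, fell in shNCOR cells (-0.41 ± 0.05, adjusted p = 3.7e-05), and shSMRT did not pass (-0.03 ± 0.05, adjusted p = 0.66).

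Of 10 vitamin, nucleoside and nucleobase carriers, 2 rose and 6 fell in shNCOR cells, 20.0% and 60.0%, where 17.6% and 20.0% of all genes did. In shSMRT cells 2 rose and 4 fell, 20.0% and 40.0%, beside 24.4% and 31.4% of all genes. The 2 that rose in shNCOR cells became 1 without shNCOR replicate 2 or shGFP replicate 3 and 0 without shGFP replicate 1. Slc19a2, a thiamine importer, had 21.1, 20.0 and 20.7 RPKM in shSMRT libraries and 13.2, 12.6 and 12.8 in shNCOR libraries, against 10.6, 11.4 and 12.1 in shGFP libraries. The 3 groups did not overlap, with shSMRT at 1.81 times the shGFP mean (0.80 ± 0.05, adjusted p = 1.4e-07; shNCOR 0.17 ± 0.05, adjusted p = 0.015). Slc5a6, the importer of biotin and pantothenate, had 3.35, 3.46 and 2.92 RPKM in shSMRT libraries and 5.78, 6.17 and 5.83 in shNCOR libraries, against 7.54, 8.15 and 7.64 in shGFP libraries. It fell with both hairpins and fell furthest of all members in shSMRT cells, to 0.417 times the shGFP mean (-1.05 ± 0.06, adjusted p = 1.4e-07; shNCOR -0.34 ± 0.06, adjusted p = 0.0011). The equilibrative nucleoside carrier Slc29a1, the most abundant of the class, did not pass the test with either hairpin (0.00 ± 0.03 and -0.03 ± 0.03). Slc29a3, the lysosomal nucleoside exporter, rose in shNCOR cells (0.28 ± 0.08, adjusted p = 0.02), a call lost without shNCOR replicate 2 or shGFP replicate 1 or 3.

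Of 17 ion exchangers and cotransporters, 3 rose and 3 fell in shSMRT cells (5 with quantile normalization), and 5 rose and 2 fell in shNCOR cells. These are 17.6% each in shSMRT cells, beside 24.4% and 31.4% of all genes. In shNCOR cells they are 29.4% and 11.8%, beside 17.6% and 20.0%. The 5 became 2 or 3 without shNCOR replicate 2 or any shGFP library, and the 2 became 1 without shNCOR replicate 1 or 2, any shSMRT library or shGFP replicate 2 or 3. Slc24a5, a sodium, calcium and potassium exchanger best known from pigment cells, had 15.3, 14.9 and 15.6 RPKM in shSMRT libraries and 21.5, 23.2 and 21.5 in shNCOR libraries, against 23.0, 22.8 and 22.7 in shGFP libraries. It fell in shSMRT cells (-0.55 ± 0.04, adjusted p = 4.9e-07). Its opposite-strand neighbour Myef2 averaged 31.8 RPKM in shSMRT and 34.9 in shNCOR cells, against 34.6 in shGFP cells. The chloride and bicarbonate exchanger Slc4a2, the most abundant of the class, rose with both (0.19 ± 0.03 in shNCOR, 0.36 ± 0.03 in shSMRT cells). Slc9a5, a sodium and proton exchanger, fell in shNCOR cells (-0.35 ± 0.12, adjusted p = 0.045), a call lost without any library except shNCOR replicate 3.

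Of 9 carriers of organic ions, choline and lipids, 4 rose and 1 fell in shSMRT cells and 2 rose and 1 fell in shNCOR cells, the last count being 2 without shNCOR replicate 2 or shSMRT replicate 2. With all libraries these are 44.4% and 11.1% in shSMRT cells, beside 24.4% and 31.4% of all genes. In shNCOR cells they are 22.2% and 11.1%, beside 17.6% and 20.0%. Slc27a1, a fatty acid carrier and the most abundant of these, rose with both hairpins (0.27 ± 0.06 in shSMRT, 0.23 ± 0.06 in shNCOR cells), and Slc22a17, a receptor of lipocalin 2, fell in shSMRT cells (-0.48 ± 0.11, adjusted p = 0.0039). The 6 carriers of nucleotide sugars and coenzyme A of the secretory pathway gave 1 fall in shSMRT cells (and 1 rise without shSMRT replicate 2) and 3 rises in shNCOR cells. The 1 fall is 16.7%, beside 31.4% of all genes, and the 3 rises are 50.0%, beside 17.6%. The 3 became 1 without shNCOR replicate 1 or 2 or shGFP replicate 2 or 3. Their most abundant member, Slc35a4, did not pass with either hairpin. Of 4 phosphate and vesicular anion carriers, the lysosomal sialic acid exporter Slc17a5 rose in shSMRT cells (0.49 ± 0.04, adjusted p = 1.5e-06), with 16.5, 16.5 and 15.8 RPKM against 11.7, 11.3 and 11.0 in shGFP libraries. It rose in shNCOR cells too (0.14 ± 0.04, adjusted p = 0.015), a call lost without shGFP replicate 3. The vesicular nucleotide carrier Slc17a9 fell in shSMRT cells (-0.39 ± 0.07, adjusted p = 0.001), and the phosphate importer Slc20a1 also did (-0.12 ± 0.04, adjusted p = 0.026), a call lost without shSMRT replicate 2 or 3 or shGFP replicate 1 or 2. The unclassed Slc49a4 had 1.16, 1.16 and 1.01 RPKM in shSMRT and 0.679, 0.725 and 0.737 in shNCOR libraries, against 0.479, 0.549 and 0.482 in shGFP libraries.

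Carriers of the lysosome, drawn from several of these classes, numbered 11 at the level among 14 listed, and 4 rose and 2 fell with either hairpin. These are 36.4% and 18.2%, beside 17.6% and 20.0% of all genes in shNCOR and 24.4% and 31.4% in shSMRT cells. In shNCOR cells the 4 were Slc37a2, Slc48a1, Slc29a3 and Slc17a5 (2 without shGFP replicate 3), and the 2 were Slc15a3 and Slc11a1. In shSMRT cells the 4 were Slc11a1, Slc48a1, Slc37a2 and Slc17a5, and the 2 were Slc17a9 and the glutamine exporter Slc38a7 (-0.26 ± 0.04, adjusted p = 0.00043). The list leaves out Slc2a6 and Slc31a2, which are described above as lysosomal, so the counts depend on its choice. Both of these fell in shNCOR cells (-0.21 ± 0.05 and -0.21 ± 0.07). In shSMRT cells Slc31a2 rose (0.79 ± 0.07) and Slc2a6 did not pass the test (0.02 ± 0.05).

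Transport proteins outside the numbered families were set beside the members: of 21 at the level among 27 listed, 12 rose and 1 fell in shNCOR cells and 5 rose and 9 fell in shSMRT cells relative to shGFP. These are 57.1% and 4.76% in shNCOR cells, where 17.6% and 20.0% of all genes rose and fell, and 23.8% and 42.9% in shSMRT cells, where 24.4% and 31.4% did. The list was drawn up with earlier results of these data known. Abca1, which exports cholesterol, had 2.35, 2.24 and 2.13 RPKM in shNCOR and 1.58, 1.70 and 1.64 in shSMRT libraries, against 0.333, 0.448 and 0.340 in shGFP libraries (1.24 ± 0.07 and 0.94 ± 0.07). The transferrin receptor Tfrc rose with both (0.69 ± 0.03 in shNCOR, 0.40 ± 0.03 in shSMRT cells), and so did the phosphate exporter Xpr1 (0.59 ± 0.04 and 0.75 ± 0.04). Mfsd1, a lysosomal dipeptide carrier, fell with both (-0.21 ± 0.02 and -0.32 ± 0.02), and the endosomal ferric reductase Steap3 rose in shNCOR (0.16 ± 0.03) and fell in shSMRT cells (-0.39 ± 0.03). The pyruvate carrier subunit Mpc1 fell in shSMRT cells (-0.38 ± 0.08).

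The 5 solute carriers left out by name gave the following means. Slc7a5 averaged 55.1 ± 0.625 RPKM in shNCOR and 28.9 ± 0.623 in shSMRT cells, against 75.1 ± 0.810 in shGFP cells (SD, n = 3 each). Its partner Slc3a2 averaged 64.7 in shNCOR and 51.2 in shSMRT cells, against 70.7 in shGFP cells. Slc2a1 averaged 42.8, 60.2 and 54.9 RPKM, Slc30a1 7.26, 11.0 and 6.53, and Slc7a11 2.90, 3.40 and 2.44 in shNCOR, shSMRT and shGFP cells in that order.

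The members' chromatin was read from their 511 peaks, of which 507 reached 10 scaled reads (reads per peak, with each library scaled to 10 M reads) in at least 3 of 9 libraries. Peaks lay near 139 of the 151 genes, a median of 3 and at most 13 per gene. The authors' annotation placed 217 in introns, 146 between genes, 110 at promoters, 14 in 5′ untranslated regions, 9 in exons, 9 at transcript ends and 6 in 3′ untranslated regions, on coordinates that match mm10 (GRCm38). In the tests below log2 fold changes are of the scaled reads plus 5. The farthest member peak lay 49535 bases from the start of Slc38a9, and the nearest peak left out 50202 bases from that of Slc7a1.

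In shNCOR cells 28 member peaks were more open and 16 less open than in shGFP cells. These are 5.52% and 3.16%, where 4.58% and 4.00% of all peaks were. Without shNCOR replicate 2 or shGFP replicate 1, 2 or 3 the 28 became 16, 18, 14 and 17, and without shNCOR replicate 2 or shGFP replicate 1 or 3 the 16 became 10, 8 and 9. In shSMRT cells 21 were more open and 77 less open than in shGFP cells. These are 4.14% and 15.2%, where 6.81% and 10.9% of all peaks were, and the 77 became 45 or 51 without shGFP replicate 1 or 3. Set against shNCOR cells, shSMRT cells had 17 peaks more open and 118 less open. These are 3.35% and 23.3%, where 6.93% and 17.5% of all peaks were. The 17 became 9, 8 and 10 without shSMRT replicate 1, 2 or 3.

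These splits moved with the scaling between libraries. The share of all reads that fell in peaks was 54.7% to 55.7% in shNCOR, 47.6% to 49.9% in shSMRT and 50.6% to 54.0% in shGFP libraries, and the median log2 fold change of all peaks was 0.05 for shNCOR over shGFP, -0.09 for shSMRT over shGFP and -0.12 for shSMRT over shNCOR. With quantile normalization the counts were 16 more and 18 less open for shNCOR over shGFP, 34 and 49 for shSMRT over shGFP, and 19 and 32 for shSMRT over shNCOR. With median-of-ratios scaling they were 19 and 19, 29 and 52, and 24 and 54. Under either scaling fewer than 77 and 118 member peaks were less open in shSMRT cells, though more than were more open. Over all peaks the split turned round: with quantile normalization 4390 were more and 3358 less open for shSMRT over shGFP and 3550 and 2401 for shSMRT over shNCOR, and with median-of-ratios scaling 4332 and 3026, and 4622 and 3484.

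Peaks within 1 kb of a start site, 146 in all, carried much of this. In shSMRT cells 38 of them were less open and 1 more open than in shGFP cells, where 21.8% and 1.62% of all peaks at start sites were. The 38, or 26.0%, became 23 without shGFP replicate 1 or 3, 24 with median-of-ratios scaling and 14 with quantile normalization. Against shNCOR cells 64 were less open (43.8%, with 41.7% of all peaks at start sites), 42 without shSMRT replicate 1, 28 with median-of-ratios scaling and 9 with quantile normalization. Of the 361 farther peaks, 39 were less open in shSMRT than in shGFP cells (10.8%, with 7.65% of all such peaks) and 22 without shGFP replicate 1. Against shNCOR cells 54 were less open (15.0%, with 10.3%), 26 with median-of-ratios scaling and 23 with quantile normalization.

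Set beside the RNA calls for shNCOR over shGFP, the 113 peaks of the 31 genes that rose held 15 that opened (13.3%) and 0 that closed. The 177 peaks of the 38 genes that fell held 8 that opened (4.52%) and 10 that closed (5.65%), and the 217 peaks of the 70 uncalled genes held 5 (2.30%) and 6 (2.76%), where 4.58% and 4.00% of all peaks opened and closed. For shSMRT over shGFP the 150 peaks of 37 genes that rose held 8 that opened (5.33%) and 13 that closed (8.67%), the 169 peaks of 41 genes that fell held 3 (1.78%) and 38 (22.5%), and the 188 peaks of 61 uncalled genes held 10 (5.32%) and 26 (13.8%), where 6.81% and 10.9% of all peaks did. For shSMRT over shNCOR the 169 peaks of 40 genes higher in shSMRT cells held 10 that were more open (5.92%) and 26 that were less open (15.4%), the 159 peaks of 39 genes lower there held 2 (1.26%) and 57 (35.8%), and the 179 peaks of 60 uncalled genes held 5 (2.79%) and 35 (19.6%), where 6.93% and 17.5% of all peaks were. In that comparison genes with more RNA in shSMRT cells held more peaks that were less open than more open, at shares near those of all peaks. Over all peaks this split turned round under both other scalings, and the counts by RNA call were not repeated under them. Slc39a8 and Slc49a4, which reached 1 RPKM in shSMRT libraries alone, are among the genes counted as higher in both shSMRT comparisons. Slc39a8 gave 1 of the 8 peaks that opened over shGFP and 2 of the 10 more open over shNCOR, and Slc49a4 gave 0 of either. Peaks of the same gene share its locus and are not independent, and these counts carry no test.

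**Figure D3:**
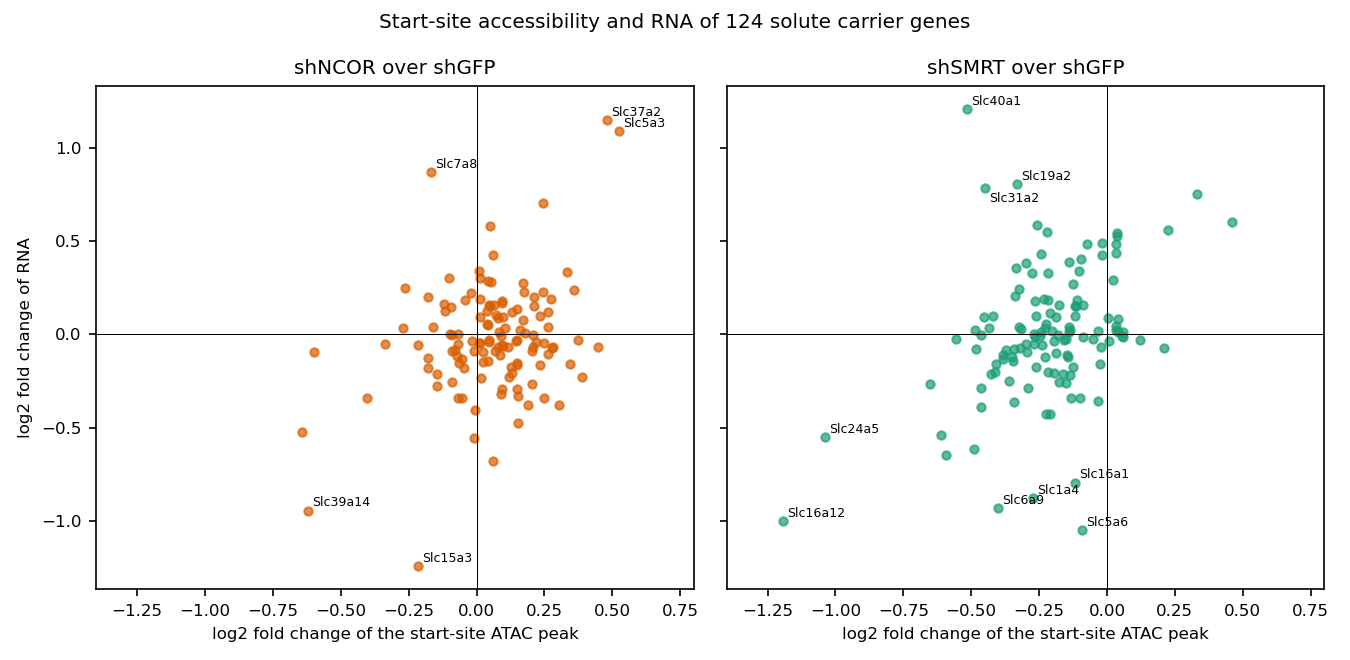
Log2 fold change of RNA (vertical axis, RPKM + 1) against that of the gene's ATAC peak within 1 kb of the start site (horizontal axis, scaled reads + 5), one point per solute carrier gene (124 genes); shNCOR over shGFP is on the left and shSMRT over shGFP on the right. Slc37a2 and Slc5a3 lie at the upper right of the left panel and Slc16a12 at the lower left of the right panel, whereas Slc40a1 lies high on the RNA axis with a start-site value of -0.52.

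Over the 124 genes with a tested start-site peak, the peak's log2 fold change and the RNA's had Pearson's r = 0.319 and Spearman's rho = 0.121 for shNCOR over shGFP, and 0.379 and 0.316 for shSMRT over shGFP. Levels in shGFP cells had r = 0.156. These describe genes, which are not independent replicates, and all genes share the same libraries and scaling.

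At Slc37a2, 4 of 6 peaks were more open in shNCOR than in shGFP cells. The peak over its start (chr9:37255140-37256026, which holds the promoter printed above) had 234, 256 and 268 scaled reads in shNCOR libraries and 197, 180 and 175 in shSMRT libraries, against 191, 190 and 159 in shGFP libraries. Only the shNCOR libraries lay above the rest (0.48 ± 0.11, adjusted p = 0.0021). An intronic peak 13160 bases into the gene (chr9:37242318-37242838) had 143, 104 and 136 in shNCOR libraries and 225, 270 and 204 in shSMRT libraries, against 74.9, 82.5 and 59.9 in shGFP libraries. There the order was different, with shSMRT highest (1.62 ± 0.14, adjusted p = 1.6e-12) and shNCOR between (0.77 ± 0.14, adjusted p = 0.00012), while the RNA was highest in shNCOR cells. Intronic peaks 8126 and 23118 bases in were also more open in shNCOR cells (0.39 ± 0.11 and 0.69 ± 0.19), the second of them in shSMRT cells as well (0.79 ± 0.19).

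At Slc5a3 all 6 peaks were less open in shSMRT than in shNCOR cells. The start-site peak (chr16:92057883-92058598, with the printed promoter) had 214, 236 and 178 scaled reads in shNCOR libraries and 106, 133 and 103 in shSMRT libraries, against 170, 103 and 166 in shGFP libraries. It was more open in shNCOR than in shGFP cells (0.52 ± 0.14, adjusted p = 0.011), shSMRT overlapped shGFP, and shSMRT lay 0.85 ± 0.14 below shNCOR on the log2 scale (adjusted p = 1.5e-05). A peak 36463 bases upstream (chr16:92021743-92021975) had 48.8, 32.9 and 43.9 in shSMRT libraries and 83.2, 107 and 112 in shNCOR libraries, against 90.6, 98.4 and 92.2 in shGFP libraries. It was low in shSMRT cells (-1.09 ± 0.18, adjusted p = 1.2e-05) although the RNA of Slc5a3 there did not pass the test. The overlapping Mrps6 averaged 122 RPKM in shSMRT and 243 in shNCOR cells, against 158 in shGFP cells. Whether these peaks belong to Slc5a3 or Mrps6 was not tested.

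At Slc16a12 RNA and chromatin fell together in shSMRT cells. Its start-site peak in the 5′ untranslated region (chr19:34746827-34747492) had 31.0, 23.8 and 34.0 scaled reads in shSMRT libraries and 73.9, 89.1 and 83.7 in shNCOR libraries, against 72.7, 74.1 and 73.8 in shGFP libraries. The shSMRT libraries held less than any other library (-1.19 ± 0.20 over shGFP, adjusted p = 1.9e-05; -1.34 ± 0.20 over shNCOR, adjusted p = 2.4e-06). Intronic peaks 20864 and 21757 bases in were also less open (-0.96 ± 0.13 and -0.63 ± 0.16). A peak 9341 bases upstream was more open in shNCOR cells (0.94 ± 0.24, adjusted p = 0.0091), a call lost without shGFP replicate 1.

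**Figure D4:**
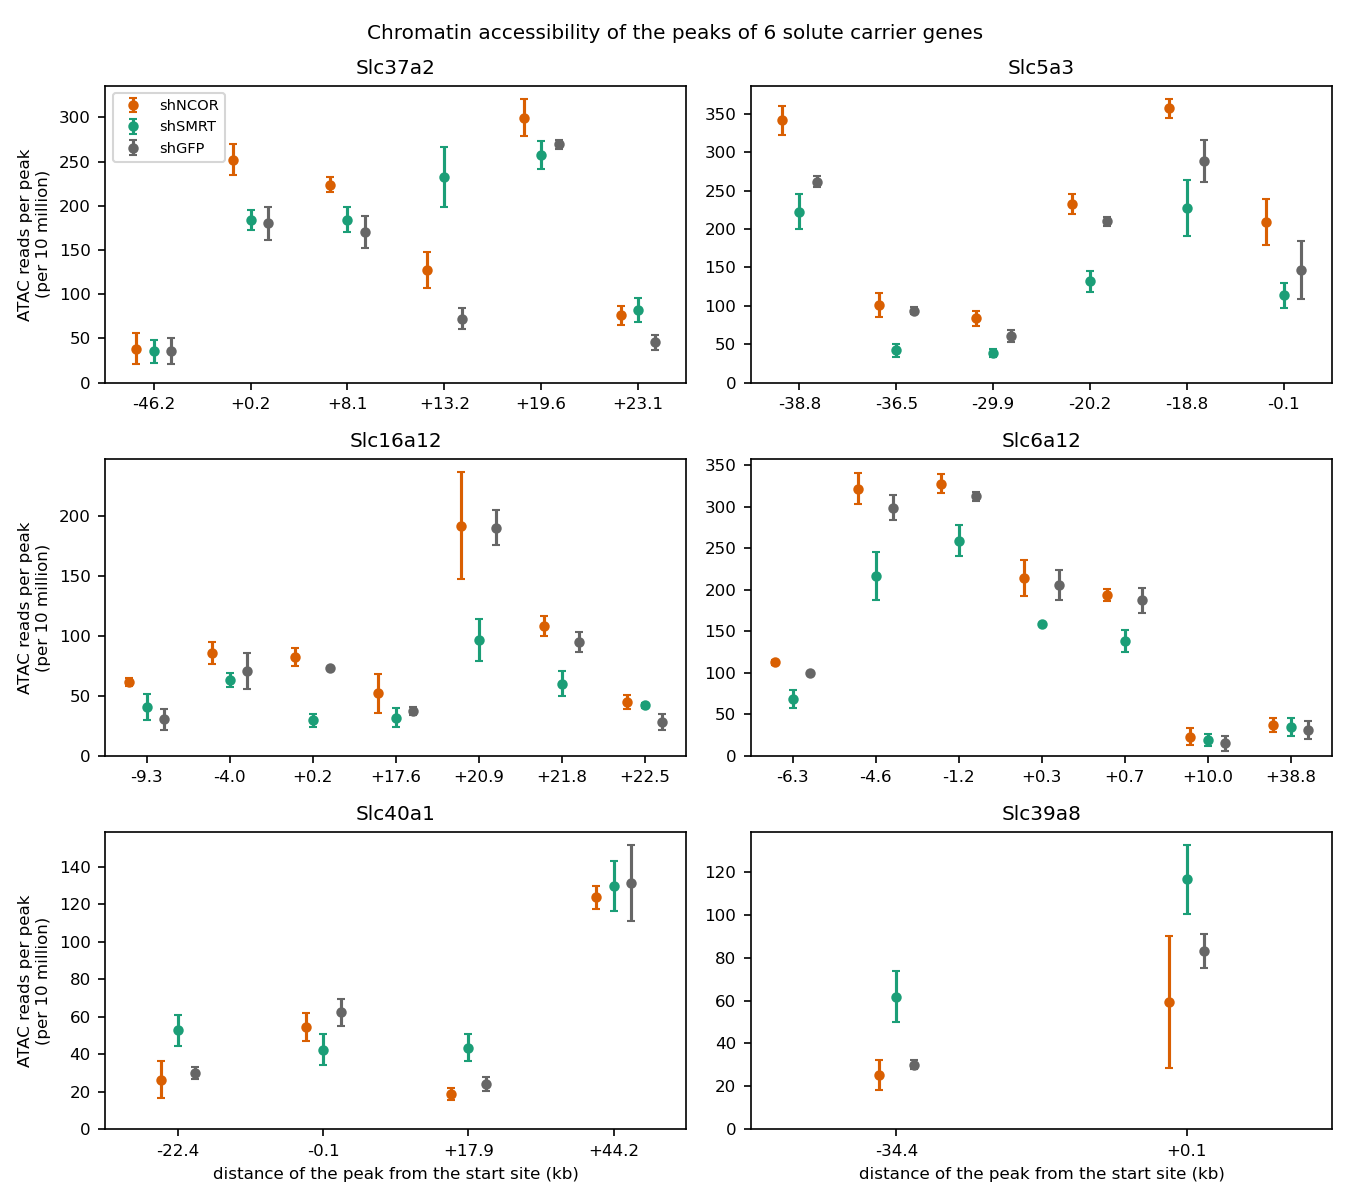
ATAC reads per peak scaled to 10 M reads (vertical axis, from 0) for every tested peak of 6 solute carrier genes, ordered by distance from the start site in kb (horizontal axis, not to scale); points are means and bars the SD of 3 libraries. At Slc37a2 the peak at +13.2 kb is highest in shSMRT (204 to 270) and lowest in shGFP (59.9 to 82.5), and at Slc16a12 the start-site peak is low in shSMRT (23.8 to 34.0).

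At the betaine carrier Slc6a12, whose RNA fell in shSMRT and rose in shNCOR cells, 5 of 7 peaks were less open in shSMRT cells (-0.27 ± 0.09 to -0.52 ± 0.15), and none passed for shNCOR. The median of all peaks was -0.09 for shSMRT over shGFP, and these 5 calls were not followed through the other scalings. At Slc40a1 the RNA was highest in shSMRT cells while the start-site peak had 32.9, 47.6 and 46.7 scaled reads in shSMRT and 48.8, 62.7 and 52.0 in shNCOR libraries, against 59.3, 70.3 and 57.2 in shGFP libraries (-0.52 ± 0.21, adjusted p = 0.084). Farther peaks of Slc40a1, 22411 bases upstream and at the transcript end 17878 bases downstream, were more open in shSMRT than in shNCOR cells (0.92 ± 0.27 and 1.02 ± 0.29) and did not pass against shGFP (adjusted p = 0.059 and 0.072).

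At Slc39a8 a peak 34405 bases upstream (chr3:135790758-135790991) had 69.5, 68.1 and 48.1 scaled reads in shSMRT libraries and 33.0, 19.8 and 22.8 in shNCOR libraries, against 27.9, 30.0 and 32.3 in shGFP libraries. The shSMRT libraries lay above all others, by 0.92 over shGFP on the log2 scale. The start-site peak (chr3:135825392-135826334) had 99.5, 132 and 119 in shSMRT libraries and 84.5, 24.8 and 68.5 in shNCOR libraries, against 80.5, 76.9 and 92.2 in shGFP libraries. In shSMRT cells it lay 1.06 above shNCOR and 0.46 above shGFP cells on the log2 scale. shNCOR replicate 2, the ATAC library with the fewest reads, was the lowest there. Slc39a8 is a member only through its RNA in shSMRT libraries. Its peaks were thus picked through the group where its RNA is high, so their values in shSMRT cells are a description and no test is given for them.

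For Slc39a14 the start-site peak (chr14:70350981-70351597) had 70.0, 97.4 and 91.3 scaled reads in shNCOR and 89.2, 99.8 and 99.0 in shSMRT libraries, against 142, 132 and 128 in shGFP libraries. It was less open with both hairpins (shNCOR -0.62 ± 0.15, adjusted p = 0.0035; shSMRT -0.46 ± 0.15, adjusted p = 0.022), as its RNA was lower. The single peak of Slc15a3, 360 bases upstream of its start, had 344, 348 and 346 in shNCOR and 339, 319 and 293 in shSMRT libraries, against 415, 382 and 412 in shGFP libraries. It passed the test in shSMRT cells (-0.34 ± 0.09, adjusted p = 0.0041), where the RNA did not, and missed it in shNCOR cells (-0.21 ± 0.09, adjusted p = 0.12), where the RNA fell. The median of all peaks within 1 kb of a start site was itself -0.20 for shSMRT and 0.08 for shNCOR over shGFP. The Slc15a3 peak is not among those followed through the other scalings. Slc11a1 had an intronic peak 6484 bases in that was more open with both hairpins (0.55 ± 0.11 in shNCOR, 0.69 ± 0.11 in shSMRT cells), while its RNA moved in opposite directions. At Slc24a5 the start-site peak (chr2:125067869-125068337) was less open in shSMRT cells (-1.04 ± 0.28, adjusted p = 0.0058), with 35.7, 11.3 and 25.5 scaled reads against 54.8, 49.7 and 48.9 in shGFP libraries, and the call was lost without shSMRT replicate 2.

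Other peaks named by the size of their change were mostly small and far from start sites. In shNCOR cells an intronic peak of Slc39a6 was less open (-2.25 ± 0.44), with 2.64, 3.30 and 0 scaled reads against 30.2, 31.9 and 21.2 in shGFP libraries, and its fall in shSMRT cells (-1.42 ± 0.44) was lost without shSMRT replicate 1 or 3 or shGFP replicate 1 or 2. A peak 14067 bases upstream of the aspartate and glutamate carrier Slc25a13 was less open in shNCOR cells (-0.86 ± 0.19, adjusted p = 0.0013), where its RNA fell (-0.34 ± 0.04). An intronic peak of Slc37a1 also was (-1.29 ± 0.28), whereas peaks upstream of Slc2a9 and Slc30a4 (-1.11 ± 0.34 and -0.997 ± 0.31) lost their calls without shNCOR replicate 2 or 3 or any shGFP library. A peak inside Slc45a3, 6211 bases from the start site that the authors assigned it to, was more open with both hairpins (1.33 ± 0.29 in shNCOR, 1.30 ± 0.29 in shSMRT cells). An intronic peak of Slc44a1 was too (0.88 ± 0.29 in shNCOR, 0.96 ± 0.29 in shSMRT cells), with the shNCOR call lost without shNCOR replicate 1 or 2, shSMRT replicate 1 or 2 or any shGFP library.

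In shSMRT cells an intronic peak of the amino acid carrier Slc36a4 (chr9:15734496-15734768) had 70.4, 71.5 and 55.2 scaled reads and 27.7, 44.6 and 35.5 in shNCOR libraries, against 20.1, 25.3 and 9.22 in shGFP libraries. It was more open in shSMRT than in shGFP cells (1.67 ± 0.28, adjusted p = 1.5e-05) while the RNA did not pass (0.01 ± 0.05, adjusted p = 0.87). Its shNCOR call (0.87 ± 0.28) was lost without shNCOR replicate 2 or 3, shSMRT replicate 1 or 2 or shGFP replicate 1 or 3. Peaks upstream of Slc30a5 (1.17 ± 0.27) and downstream of the start of Slc25a46 (1.83 ± 0.47) were more open in shSMRT cells, as was 1 upstream of Slc43a3 (1.44 ± 0.38), whose call was lost without shGFP replicate 3. Less open there were an exonic peak of Slc20a1 (-0.97 ± 0.24) and a peak 6163 bases upstream of Slc37a1 (-0.88 ± 0.23).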

How the data were processed

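RPKM values of the deposited RNA table were made by the authors with HOMER (per the file headers), and the submitters' processing notes also name Bowtie2, HISAT2, MACS2 and DESeq2 and builds mm9 and mm10, without versions. ATAC values are deposited as read numbers per peak after the authors brought every library to a common 10 M reads; 100% of tested values were whole reads within 0.1 read once the scaling was undone, and 1 cell without a number was dropped. Of the implied start sites of member peaks, 94.8% lay within 1 kb of a GRCm38.p6 start. From these, limma 3.58.1 (R 4.3.3) was fitted on log2(RPKM + 1) and log2(value + 5) over 9 libraries each, with a mean-variance trend, after filters of 1 RPKM or 10 scaled reads in 3 of 9 libraries, with Benjamini-Hochberg adjustment over all features. Scripts were tested on simulated data. Alternatives were pseudocounts, filters, scalings, voom on recovered reads, an exon length correction, a fold threshold, windows, the replicate block and each library left out. Members and lists were chosen with earlier results of these data known. Genes were named by rank of fold change among called members whose groups did not overlap, by being the most abundant of a class, by list membership or by nearness to the level. The other 54 of 72 samples were not analysed here. The level of the gene targeted in shSMRT cells is not reported here.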

Additional observations from a re-analysis of the deposited data

How the results depend on the processing

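Of 126 called values of named genes and ranked peaks, none reversed under any alternative. Of these, 11 of 100 RNA values and 9 of 26 ATAC values lost the call under an alternative other than the fold threshold. The 26 ATAC values are the peaks ranked by size of change, each in the comparison that ranked it. Other peak calls given above, such as those at the start sites of Slc37a2, Slc5a3 and Slc39a14, are not among them. Requiring a log2 fold change above 0.2 ended 49 of the 126 calls, more than any other alternative, and left 8 genes higher and 10 lower for shNCOR over shGFP, 21 and 15 for shSMRT over shGFP and 18 and 17 for shSMRT over shNCOR, and for peaks 3 and 3, 11 and 19, and 4 and 28. Quantile normalization gave 16 peaks more open for shNCOR over shGFP, 34 more and 49 less open for shSMRT over shGFP, and 32 less open for shSMRT over shNCOR; median-of-ratios scaling gave 54 for the last. Within 20 kb, 18, 9 and 8 peaks were more open in these 3 comparisons. The cause of these shifts was not tested, except that a smaller window and a higher threshold leave fewer peaks or calls by construction.

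Leaving out 1 library at a time, genes called higher and lower numbered 24 to 33 and 32 to 39 for shNCOR over shGFP, 32 to 39 and 38 to 44 for shSMRT over shGFP, and 36 to 41 and 37 to 42 for shSMRT over shNCOR. For peaks these ranges were 14 to 30 and 8 to 18, 14 to 25 and 45 to 83, and 8 to 17 and 90 to 116. ATAC libraries of 6.059 to 10.84 M reads limit what can be called at peaks of few reads.

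Deviations of libraries with the same replicate number correlated at -0.0602 to 0.105, which is weak but does not exclude a pairing. With the number as a replicate block, member genes called were 33 and 42, 40 and 43, and 42 and 42, and member peaks called were 26 and 17, 21 and 71, and 17 and 114, in the same order. Over all genes the block raised the calls from 4056, 6016 and 5590 to 4255, 6156 and 5740. Over all peaks it lowered them from 4414, 9101 and 12564 to 4248, 8646 and 12085. Among named values the block ended 1 call, that of Slc9a5 in shNCOR cells.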
